A study of Mus musculus with 2 samples.

Results

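Progenitors I are the 3592 cells that carry this name in the submitters' cell metadata, of 16401 cells in all. They come from primary cultures of the lateral ventricular walls of newborn mice (P0 to P2), in which glial progenitors turn into ependymal cells, whose many motile cilia move the fluid of the brain ventricles. Flasks were shaken overnight to free them of neurons and oligodendrocyte lineage cells, and serum was then withdrawn. Single cells were taken 2 days later with trypsin and labelled on their surface proteins, and their RNA was sequenced in droplets with unique molecular identifiers (UMIs), so that each captured molecule counts once. There are 2 libraries of untreated cultures, library 1 from C57BL/6N mice and library 2 from C57BL/6J mice, and no treated or mutant group. Progenitors I were set against the other labelled populations of the same 2 libraries, above all against progenitors II, cycling progenitors and oligodendrocyte precursor cells (OPCs).

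Progenitors I numbered 2374 cells in library 1 and 1218 cells in library 2. They made up 19.7% of library 1 (95% exact binomial interval 19.0 to 20.5%) and 27.9% of library 2 (26.5 to 29.2%). Their summed counts held 27961670 and 17864233 UMIs, with medians of 10490 and 13127.5 UMIs and of 3522.5 and 4073.5 genes per cell. Progenitors II numbered 1765 and 747 cells, cycling progenitors 520 and 239, and OPCs 68 and 34. The libraries shared 13 cell barcodes, which 2 progenitors I cells of library 1 and 1 of library 2 carried. Library, substrain and culture cannot be told apart, and the libraries are compared by values only.

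Progenitors of the ventricular wall descend from radial glia and share much of their RNA with astrocytes. The Id genes code for helix-loop-helix proteins without a DNA-binding region. Id proteins bind partners of the basic helix-loop-helix class and keep them off DNA, and Id genes are well-known targets of BMP signalling. Olig1 and Olig2 code for basic helix-loop-helix transcription factors known for the oligodendrocyte lineage, and Olig2 is also made in neural progenitors. Commitment to multiciliation runs through Gmnc and Mcidas, then Myb, Trp73 and Foxj1, after which the genes for centrioles and motile cilia are switched on.

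Counts were summed per library and population, expressed as CPM (counts divided by the total of the sum and scaled to 1e6 UMIs) and tested with edgeR's quasi-likelihood test over 13 populations with the library as a block. A gene passed the test at a Benjamini-Hochberg adjusted p under 0.05 over all 15877 genes tested. The population names presumably rest on these same expression values. A p-value below therefore measures how evenly the difference appeared in both libraries relative to the spread of all populations, and is no independent evidence that the population exists.

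Id3, Id1, Olig1 and Olig2, the genes given as markers of progenitors I, were checked first. Id3 (chr4:136143497-136145755 in mm10, plus strand) had 988 CPM in progenitors I of library 1 and 815 CPM in progenitors I of library 2. The next highest population in both libraries was cycling progenitors, with 418 and 259 CPM, so progenitors I lay 2.36-fold and 3.14-fold above it. Id1 (chr2:152736251-152737410, plus strand) had 450 and 375 CPM in progenitors I, against 353 and 294 CPM in cycling progenitors, again the next in order. Id2 (chr12:25093799-25097140, minus strand) was also highest in progenitors I, at 420 and 491 CPM, with progenitors II next in library 1 (267 CPM) and microglia next in library 2 (338 CPM). Id4 (chr13:48261228-48266026, plus strand) did not follow them. It had 504 and 429 CPM in progenitors I, 479 and 423 CPM in progenitors II, and 488 and 465 CPM in the unannotated cells.

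The Olig genes did not reach their highest level in progenitors I. Olig1 (chr16:91269772-91271933, plus strand) had 112 and 160 CPM in progenitors I, against 759 and 1089.0 CPM in OPCs and 739 and 736 CPM in oligodendrocytes. Olig2 (chr16:91225457-91228677, plus strand) had 16.7 and 21.9 CPM in progenitors I, against 406 and 568 CPM in OPCs. Olig1 and Olig2 were still higher in progenitors I than in progenitors II, in deuterosomal cells or in multiciliated cells of either library, as the plot of the 6 genes by population shows. Cycling progenitors lay in the same range, with 106 and 186 CPM of Olig1 and 21.6 and 33.3 CPM of Olig2.

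**Figure D1:**
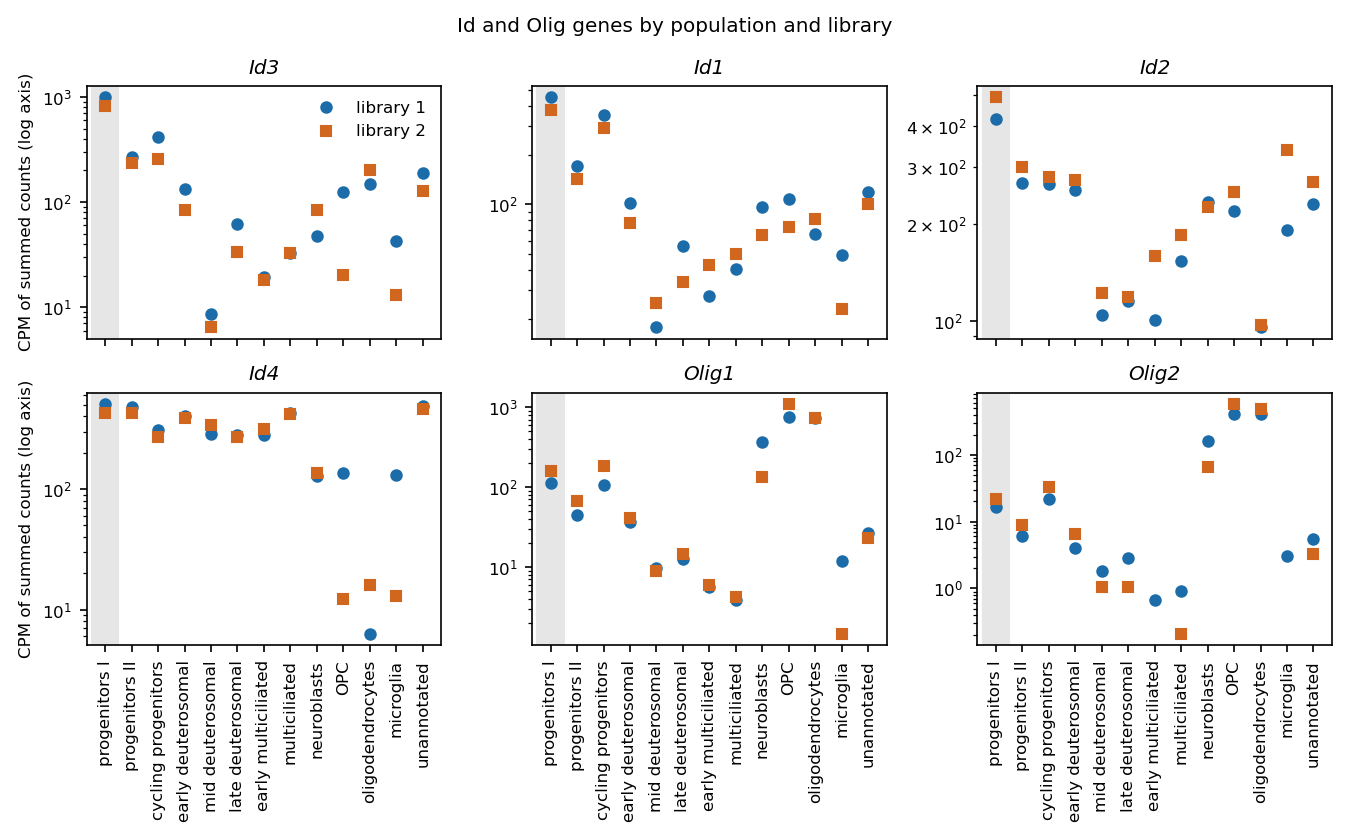
Level of Id3, Id1, Id2, Id4, Olig1 and Olig2 in CPM of summed counts (log axis) in 13 populations, with progenitors I at the left on grey, circles for library 1 and squares for library 2. A level of 0 is not drawn. Id3, Id1 and Id2 peak in progenitors I in both libraries (Id3 at 988 and 815 CPM), Id4 is shared with progenitors II, and Olig1 and Olig2 peak in OPCs or oligodendrocytes.

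At the level of single cells the markers were found in part of the population. Each cell was thinned to 5000 UMIs so that depth did not set the share, which left out 106 and 7 shallower progenitors I cells. At least 1 UMI of Id3 was found in 78.9% and 74.5% of progenitors I cells, against 42.6% and 44.2% of progenitors II cells. Microglia, taken as the level that free RNA gives, had 10.8% and 5.13%. Id1 was found in 70.1% and 64.3% of progenitors I cells, against 37.2% and 36.8% of progenitors II cells and 14.98% and 7.69% of microglia. Both Id genes were thus found well above the share in microglia. Olig1 was found in 33.9% and 40.05% of progenitors I cells, against 15.4% and 22.01% of progenitors II cells, 89.6% and 100% of OPCs and 2.79% and 2.56% of microglia. Olig2 was found in 6.13% and 8.01% of progenitors I cells, against 2.53% and 3.12% of progenitors II cells and 2.09% and 0% of microglia. The 0 of 39 microglia of library 2 allow a share of up to 9.03% (exact 95% bound), so Olig2 in progenitors I stood above that level in library 1 alone. Unthinned, the shares in progenitors I were 85.6% and 85.3% for Id3, 81.8% and 82.6% for Id1, 51.9% and 61.2% for Olig1, and 11.5% and 16.6% for Olig2, at median depths of 10490 and 13127.5 UMIs against 13668 and 17034 UMIs in microglia.

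Within progenitors I, the Id genes went together and the Olig genes went together. Id1 was found in 78.0% and 73.5% of thinned cells with Id3, against 40.3% and 37.5% of cells without Id3. Olig2 was found in 11.6% and 13.8% of cells with Olig1, against 3.33% and 4.13% of cells without it. Olig1 was found in 34.2% and 41.8% of cells with Id3, against 32.8% and 35.0% of cells without it. Gmnc, the first known regulator of multiciliation, was found in 8.55% and 6.21% of cells with Id3, against 10.9% and 6.15% of cells without it. Both pairings were also seen outside progenitors I. Id1 was found in 54.8% and 50.8% of thinned progenitors II cells with Id3, against 24.2% and 25.8% without it. In cycling progenitors these shares were 79.3% and 71.1%, against 52.6% and 47.8%. Olig2 was found in 17.96% and 22.1% of cycling progenitors with Olig1, against 3.704% and 7.97% without it. In progenitors II the Olig2 shares were 3.125% and 8.02%, against 2.43% and 1.74%. Id3 itself ranged from 0 UMIs at the 10th percentile of thinned progenitors I cells in both libraries, over medians of 3 and 2 UMIs, to 13 and 11 UMIs at the 90th percentile.

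**Figure D2:**
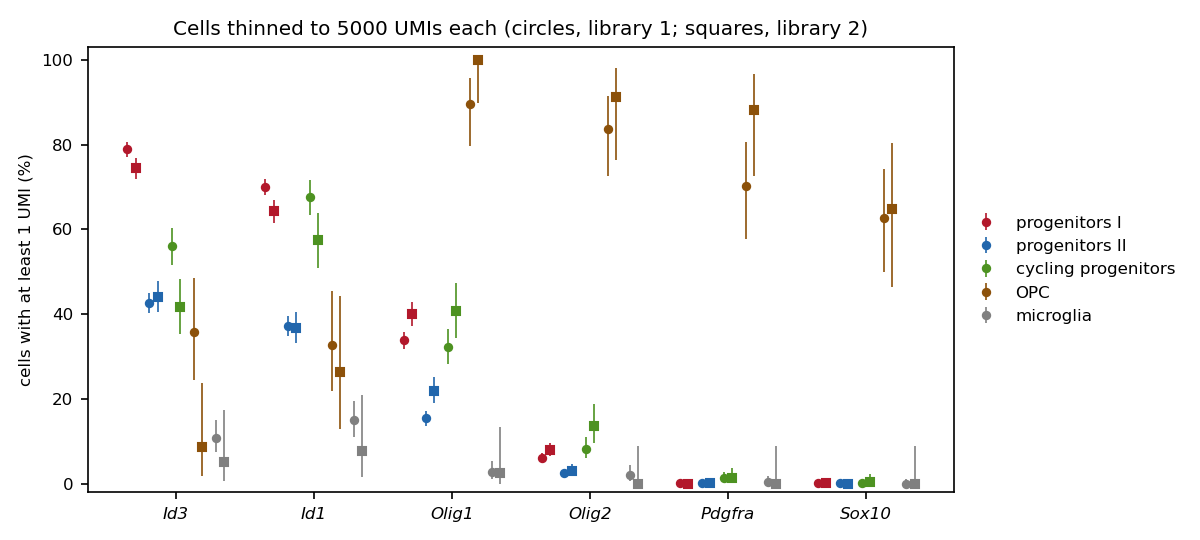
Share of cells with at least 1 UMI (%) for Id3, Id1, Olig1, Olig2, Pdgfra and Sox10 after thinning each cell to 5000 UMIs, in progenitors I, progenitors II, cycling progenitors, OPCs and microglia. Circles are library 1, squares library 2, and bars are exact 95% binomial intervals. Id3 is found in 78.9% and 74.5% of progenitors I cells, while Pdgfra and Sox10 are near 0 in them and frequent in OPCs.

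The 14 listed OPC genes, Olig1 and Olig2 among them, summed to 237 and 293 CPM in progenitors I. The sums were 168 and 191 CPM in progenitors II, 280 and 373 CPM in cycling progenitors and 3675 and 4099 CPM in OPCs. Pdgfra and Sox10 of this list were close to absent from progenitors I. Pdgfra, the PDGF receptor that marks OPCs, had 0.715 and 0.616 CPM in progenitors I, against 362 and 592 CPM in OPCs. Sox10, an oligodendrocyte lineage factor, had 0.536 and 0.784 CPM in progenitors I, against 189 and 199 CPM in OPCs. Of cells with Olig1 or Olig2, 0.978% and 0.777% also held a UMI of Pdgfra, Sox10 or Cspg4. Radial glial and astroglial genes were abundant. Their 23 listed members summed to 39282 and 32123 CPM in progenitors I, against 34449 and 29446 CPM in progenitors II, 24136 and 21795 CPM in cycling progenitors and 3716 and 2416 CPM in neuroblasts. Microglia, which make much Apoe, a member of this list, summed to 38676 and 21901 CPM. In progenitors I, 16 genes of neuroblasts and neurons summed to 302 and 437 CPM, 11 of mature oligodendrocytes to 152 and 143 CPM, 7 of choroid plexus to 116 and 109 CPM, 8 of endothelial cells to 21.96 and 41.3 CPM and 12 of microglia to 17.3 and 5.99 CPM. Of 12 mural and fibroblast genes, Acta2 and Tagln, which code for smooth muscle actin and transgelin, were high in progenitors I. Acta2 had 3181 and 3911 CPM and Tagln 3770.3 and 4505 CPM, while Col1a1, a fibroblast collagen gene, had 0.465 and 1.01 CPM, against 632 and 865 CPM in fibroblasts. Of the 9 genes of this list tested against the other populations (fibroblasts not among them), 6 were higher in progenitors I and 2 were lower, with a median log2 difference of 2.79. For 4 of the 9 genes some population had 0 UMIs, and the median was 0.53 when populations at 0 were set to 3 counts. The 6 higher genes were Pdgfrb, Acta2, Tagln, Myl9, Col1a2 and Col3a1. Of the collagen genes, Col1a2 had 7.08 and 11.6 CPM in progenitors I, against 530 and 119 CPM in fibroblasts, and Col3a1 had 0.143 and 5.93 CPM, against 1428.5 and 1728 CPM in fibroblasts.

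Few genes reached their highest level in progenitors I. Of 10095 genes with at least 20 CPM in some population, 321 (3.18%) were highest in progenitors I in both libraries, which put progenitors I at rank 8 of 13 populations in this count. The margin was small. The lower of the libraries' ratios over the next population had a median of 1.07, reached 1.5 for 4 genes and passed 2 for Id3 alone. For 160 of the 321 genes the next population was progenitors II in both libraries, and for 41 it was cycling progenitors.

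After Id3, the gene with the next highest ratio was Npvf, which codes for the precursor of RFamide neuropeptides. Npvf had 253 and 497 CPM in progenitors I, 1.89-fold and 1.95-fold above the next population, and was found in 19.8% and 29.1% of thinned cells. Glycam1, a mucin-like glycoprotein, had 33.8 and 80.2 CPM in progenitors I, against 16.5 and 42.6 CPM in progenitors II, the next in order. Fmod, the matrix proteoglycan fibromodulin, had 114 and 122 CPM in progenitors I, against 65.7 and 77.6 CPM in cycling progenitors. In each library these 4 genes were at least 1.57-fold above the next population. Next came Id2, Elobl, Cebpd, Ifitm2, Lrtm2, Fkbp7, Borcs6, Igfbp5, Arxes2, Tst and Cdk15, with lower ratios between 1.34 and 1.45. Cebpd codes for the transcription factor C/EBP delta, at 164 and 328 CPM in progenitors I. Igfbp5, a binding protein for insulin-like growth factors, had 2019.5 and 2730.4 CPM in progenitors I, against 1497 and 1954 CPM in progenitors II. Elobl, Ifitm2 and Arxes2 have close paralogs, and how reads were shared among copies was not tested.

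**Figure D3:**
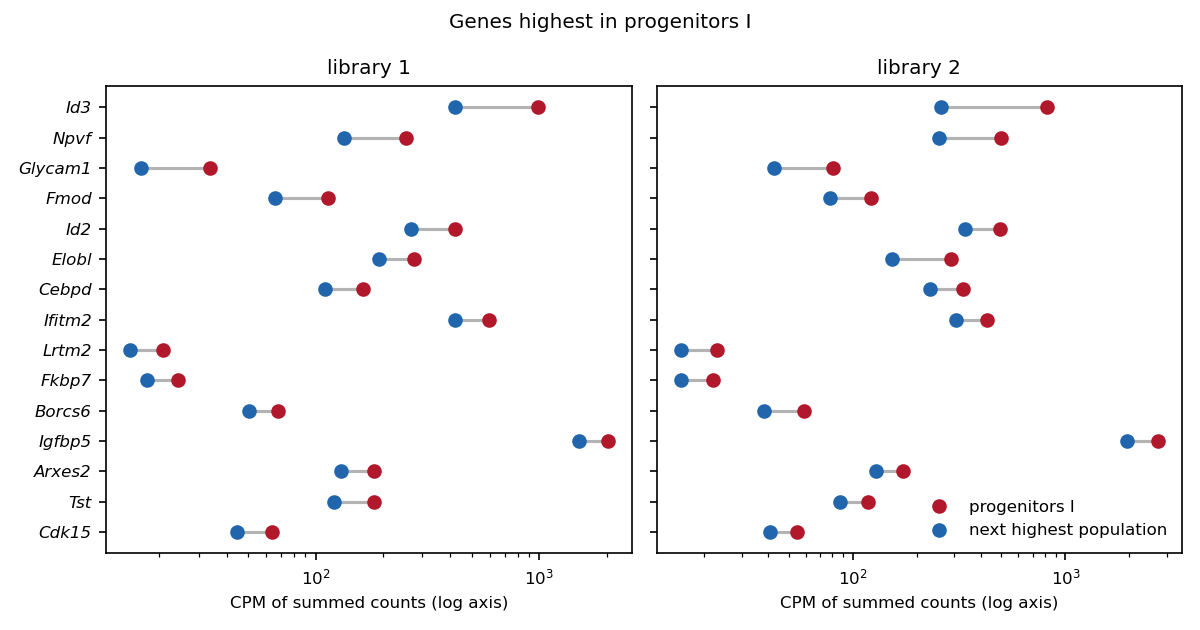
The 15 genes with the highest ratio of progenitors I over the next highest population among those highest in progenitors I in both libraries, with the level in CPM of summed counts (log axis) in each library. Red points are progenitors I and blue points the next population. The gap is widest for Id3 (988 against 418 CPM in library 1 and 815 against 259 CPM in library 2) and narrows down the list.

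Against the average of the other 12 populations, 4870 genes (30.7% of those tested) were higher and 2627 (16.5%) lower in progenitors I. By CPM ratios with 2 counts added to each sum, 4192 of the 4870 were higher in both libraries. All 2627 were lower in both. DESeq2 size factors moved the median of all genes by -0.12 on the log2 scale, and the share of higher genes among those called was 52.0% with DESeq2 and 65.0% with edgeR. The 12 highest named by rule were Glycam1, Elobl, Npvf, Id3, Osmr, Fmod, Tnc, Igfbp5, Pdgfrb, Nppc, S1pr3 and Cxcl10. Id3 was higher by 3.83 ± 0.16 on the log2 scale (SE) and Id1 by 2.65 ± 0.13, with both libraries in this direction. Several of the other named genes were about as high in progenitors II. Osmr, the oncostatin M receptor, had 24.2 and 43.9 CPM in progenitors I, with progenitors II next at 19.9 and 40.9 CPM. Pdgfrb, a PDGF receptor, had 44.7 and 45.1 CPM in progenitors I, against 37.5 and 35.5 CPM in progenitors II. S1pr3, a sphingosine-1-phosphate receptor, had 90.8 and 108 CPM in progenitors I but 105 and 127 CPM in progenitors II. The other populations include several in which such genes had 0 UMIs, which held for 4349 of the genes tested, and the fitted difference of those genes depends on the small count the fit adds.

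By gene list, 20 of 22 radial glial and astroglial genes tested were higher in progenitors I than in the other populations and none was lower. The median log2 difference of that list was 1.76, against 0.10 over all genes. Aqp4, the water channel aquaporin 4, had 718 and 512 CPM in progenitors I, with unannotated cells next at 458 and 397 CPM (log2 difference from all others 2.76 ± 0.33, edgeR adjusted p = 1.28e-05). Of 48 matrix and adhesion genes 37 were higher and 3 lower, and of 32 genes known from reactive astrocytes 27 were higher. The medians of these lists were 1.44 and 2.05, and 0.81 and 0.91 when populations at 0 were set to 3 counts. Of 18 Id genes and helix-loop-helix partners 13 were higher and 1 lower. Of 45 BMP and TGF-beta pathway genes 26 were higher and 3 lower. DESeq2 called 23 of the 45 higher and 7 lower. The median of this list was 0.74, and 0.30 when populations at 0 were set to 3 counts. Over all genes 30.7% were higher and 16.5% lower. Among the 45 pathway genes, Bmpr1b, a BMP receptor, had 13.2 and 12.0 CPM in progenitors I, against 9.98 and 10.1 CPM in cycling progenitors, the next in order. Smad9, a BMP signal transducer, had 13.1 and 15.4 CPM in progenitors I, against 12.2 and 13.7 CPM in progenitors II. For both genes the next population was thus another progenitor population.

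The genes lowest in progenitors I relative to the other populations were genes of cell division. All 12 named by rule (Hmmr, Ckap2l, Plk1, Ube2c, Knl1, Ccnb2, Ccna2, Pclaf, Mki67, Ndc80, Rad51ap1 and Cenpf) act in DNA replication or repair, mitosis or the spindle, or mark dividing cells. Mki67, the proliferation marker, had 1.18 and 2.41 CPM in progenitors I, against 536 and 730 CPM in cycling progenitors. Of 49 genes of G2 and M phase 46 were lower, 1 was higher and 2 did not pass. Of 41 S phase genes 36 were lower, and of 25 genes of centriole amplification 22 were lower. The cell cycle classes in the metadata, which presumably use the same genes, put 98.9% and 99.3% of progenitors I cells in G0, 1.10% and 0.657% in G1, and 1 of 2374 and 0 of 1218 cells in S, S/G2 or G2/M. That 0 of 1218 allows a share of up to 0.302% (exact 95% bound). In cycling progenitors 66.7% and 64.0% of cells were in S, S/G2 or G2/M. The low level was shared with other populations. The 12 listed genes of cycling cells summed to 160 and 149 CPM in progenitors I. They summed to 176 and 168 CPM in progenitors II, 120 and 109 CPM in multiciliated cells and 4736 and 5074 CPM in cycling progenitors. Of progenitors II cells 99.4% and 99.6% were in G0.

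The fewest genes differed against progenitors II. There 433 genes (2.73% of those tested) were higher and 706 (4.45%) lower in progenitors I, together 7.17%, and 64 and 280 of them differed more than 2-fold. All 1139 differences had the same direction in both libraries, which selection by this test favours, so this adds no evidence. The plot of the ratios in library 2 against those in library 1 shows Id3 and Id1 toward one end and Ak7 toward the other. These calls rest on the library block: without it 8 genes were higher and 81 lower, and 65 of the 82 genes named below did not keep their result, though Id1, Mfsd2a, Basp1, Ak7, Fam216b, Ccdc170, Cdkl4, Ttc21a, Wdr66 and Deup1 did. DESeq2 called 421 genes higher and 614 lower, but these included only 251 of edgeR's 433 higher genes and 517 of its 706 lower genes. It did not call 25 of those 82, among them Olig2, Fn1, Glycam1, Tpm2, Slc4a4, Dusp6, Wnt5b, Rsph4a and Dnah6. With progenitors I and II alone in the fit, edgeR called 2460 genes higher and 2345 lower. In such a fit with OPCs it called fewer, 2122 higher and 1968 lower. The order of the comparisons thus depends on the populations fitted. With 34 cells drawn from each population edgeR called 3 genes higher and 0 lower. At an unadjusted p under 0.05 the counts were 244 and 358 of 10592. A share of about 0.05 over both directions would pass that threshold without any difference.

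**Figure D4:**
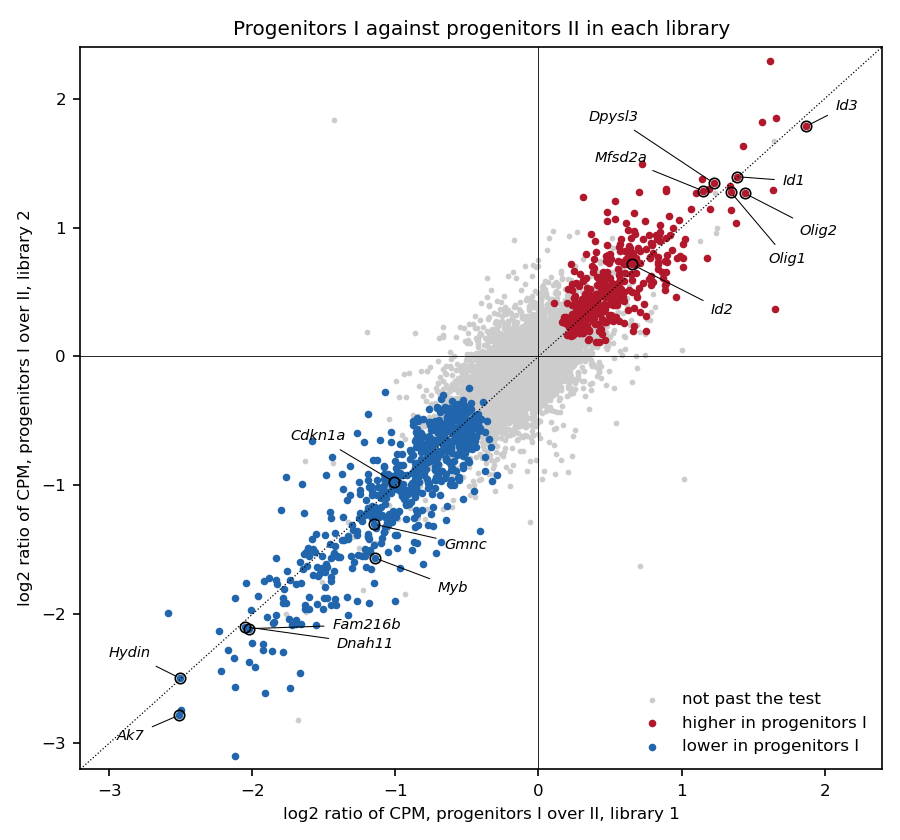
Log2 ratio of CPM, progenitors I over progenitors II, in library 1 (x axis) and library 2 (y axis) for 10744 genes with a mean of at least 5 CPM in the higher population, 1 of them outside the axes. Red and blue points passed edgeR's test, open circles mark the labelled genes, and the dotted line is equality. Id3 lies at 1.87 and 1.79 and Ak7 at -2.51 and -2.78.

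Id3, Id1 and Olig1 came first among the 12 genes named by rule as highest against progenitors II. Id3 had 988 and 815 CPM in progenitors I, against 270 and 236 CPM in progenitors II (log2 difference 1.91 ± 0.28 SE, edgeR adjusted p = 0.00102). Id1 had 450 and 375 CPM in progenitors I, against 172 and 143 CPM in progenitors II (1.47 ± 0.21, edgeR adjusted p = 0.000491). Both are given markers, so the absence of overlap between the populations for them adds no evidence. Olig1 had 112 and 160 CPM in progenitors I, against 44.2 and 66.1 CPM in progenitors II (1.40 ± 0.29, edgeR adjusted p = 0.0104). Olig2 had 16.7 and 21.9 CPM in progenitors I, against 6.06 and 8.97 CPM in progenitors II (1.47 ± 0.30, edgeR adjusted p = 0.00731). Id2 was higher by less, at 420 and 491 CPM in progenitors I, against 267 and 299 CPM in progenitors II (0.76 ± 0.12, edgeR adjusted p = 0.000124). Id4 differed by 0.13 ± 0.46 (edgeR adjusted p = 0.929). Of the 18 helix-loop-helix genes tested 7 were higher and none was lower, and the other 2 called, beside Id1, Id2, Id3, Olig1 and Olig2, were the Notch targets Hes5 and Hey2. DESeq2 called 5 of the 7, and Id1 alone passed without the library block. Hes5 rested mainly on library 2, with 0.536 and 22.6 CPM in progenitors I, against 0.0977 and 9.06 CPM in progenitors II.

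Of 48 matrix and adhesion genes tested 10 were higher in progenitors I than in progenitors II, none was lower and 38 did not pass, with a list median of 0.25 against -0.01 over all genes. Bcan, the brain proteoglycan brevican, had 73.4 and 54.6 CPM in progenitors I, against 28.8 and 24.6 CPM in progenitors II (1.34 ± 0.22, edgeR adjusted p = 0.00149). Fn1, fibronectin, had 44.3 and 77.1 CPM in progenitors I, against 23.8 and 31.2 CPM in progenitors II (1.15 ± 0.26, edgeR adjusted p = 0.0162). Dpysl3, a cytoskeletal regulator of the CRMP family, had 43.4 and 63.4 CPM in progenitors I, against 18.5 and 24.8 CPM in progenitors II. All 3 genes were higher in each library, which the rule for named genes required. The 10 matrix and adhesion genes were Fn1, Bcan, Ncan (neurocan), Ncam1 (the adhesion molecule NCAM), Tnc (tenascin C), the integrin genes Itga6 and Itgav, Cdh11, Nid2 and Lamb1. DESeq2 did not call 6 of them (Fn1, Ncan, Tnc, Itga6, Cdh11 and Nid2, DESeq2 adjusted p between 0.0843 and 0.329), and without the library block none of the 10 passed. Lamb1 had no more than 1.46 CPM in any of these sums. Tpm2, a tropomyosin, had 101 and 105 CPM in progenitors I, against 50.3 and 61.7 CPM in progenitors II (0.98 ± 0.17). The contractile genes Acta2 and Tagln did not pass, with Acta2 at 3181 and 3911 CPM in progenitors I and 2250.2 and 2355 CPM in progenitors II (0.71 ± 0.75, edgeR adjusted p = 0.673). Mfsd2a, a lipid transporter, was the named gene with the smallest adjusted p on this side, at 72.2 and 102 CPM in progenitors I, against 32.4 and 41.7 CPM in progenitors II (1.30 ± 0.12, edgeR adjusted p = 4.98e-07). Scrg1, Olfm2, Glycam1 and Basp1 completed the 12 named genes, with log2 differences of 1.26, 1.10, 1.05 and 1.00.

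Of 35 genes of receptor tyrosine kinase signalling and its feedback 7 were higher in progenitors I, 1 was lower and 27 did not pass. DESeq2 did not call Dusp6 (DESeq2 adjusted p = 0.117) or Fgf2 (DESeq2 adjusted p = 0.159), and without the library block none of these 35 genes passed. Spry1, a feedback inhibitor of the ERK pathway, had 11.3 and 19.9 CPM in progenitors I, against 7.13 and 10.4 CPM in progenitors II (0.88 ± 0.14). Dusp6, an ERK phosphatase, had 33.2 and 45.5 CPM in progenitors I, against 21.4 and 31.7 CPM in progenitors II (0.66 ± 0.17). The other genes higher were the receptor gene Egfr, the ligand gene Fgf2, the feedback gene Spry2 and the factors Etv1 and Etv5, with differences of 0.43, 0.65, 0.44, 0.79 and 0.63. Kit, a receptor, was lower, at 1.22 and 2.41 CPM in progenitors I and 3.03 and 5.00 CPM in progenitors II. Of 23 genes of cholesterol synthesis 8 were higher (against 2.73% of all genes) and none lower, among them Hsd17b7 (0.71), Nsdhl (0.63), Insig1 (0.53) and Fdps (0.51). The median of that list was 0.33. DESeq2 called 6 of the 8, and none passed without the library block.

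Of 45 genes of the BMP and TGF-beta pathway, whose best-known targets include the Id genes, 2 were higher than in progenitors II, 2 were lower and 41 did not pass, with a median of 0.05. Over all genes 2.73% were higher and 4.45% lower, so these counts lay near the share of all genes. Without the library block none of these calls held. Bmpr1b had 13.2 and 12.0 CPM in progenitors I, against 9.72 and 8.02 CPM in progenitors II (0.57 ± 0.14). Nog, which codes for the BMP antagonist noggin, had 19.2 and 35.3 CPM in progenitors I, against 13.6 and 24.5 CPM in progenitors II (0.60 ± 0.13). Tgfbr3, a coreceptor, was lower, with 2.65 and 1.68 CPM in progenitors I and 5.52 and 4.15 CPM in progenitors II. Smad5, a BMP signal transducer, was lower by 0.37 ± 0.10 on the log2 scale. Of 25 Notch genes 3 were higher (Hes5, Hey2 and Dlk1), of 32 Wnt genes 1 (Wnt5b, by 0.83 ± 0.15), and none was lower in either list. DESeq2 called 1 of the 3 Notch genes and not Wnt5b, and without the library block none of the calls held.

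Of 22 radial glial and astroglial genes tested 3 were higher in progenitors I than in progenitors II, none was lower and 19 did not pass, with a list median of 0.21. DESeq2 called none of the 3. Slc4a4, a bicarbonate transporter of astrocytes, had 338 and 344 CPM in progenitors I, against 195 and 189 CPM in progenitors II (0.91 ± 0.21). Aldh1l1, a folate enzyme of astrocytes, was higher by 0.56. Fabp7, the radial glial fatty acid binding protein, had 1933 and 2192 CPM in progenitors I, against 822 and 910 CPM in progenitors II, and did not pass (1.33 ± 0.58, edgeR adjusted p = 0.226). Gfap, the astrocyte intermediate filament, had 1042 and 1099 CPM in progenitors I and 1011 and 1221 CPM in progenitors II, so the libraries overlapped (0.02 ± 0.58, edgeR adjusted p = 0.998). Of 32 reactive astrocyte genes 1 was higher and 1 lower. Of 28 patterning factors 1 was higher (Nr2f2, by 0.87) and 2 were lower (Otx2 and Emx1, at -0.90 and -0.87). Over all genes 2.73% were higher and 4.45% lower. Without the library block no gene of the radial glial and astroglial, reactive astrocyte or patterning lists passed.

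Of 47 axoneme and ciliary motility genes tested 32 were lower in progenitors I and none was higher, with a list median of -1.32, against 4.45% of all genes lower. DESeq2 called 24 of these 32 lower, and 11 passed without the library block. All 12 genes named by rule as lowest in progenitors I relative to progenitors II (Ak7, Cfap299, Fam216b, Ccdc170, Ccdc113, Cdkl4, Ttc21a, Rsph4a, Wdr66, Cfap206, Spag6l and Dnah6) had between 4.87 and 36.4 CPM in progenitors I. Ak7, an adenylate kinase of the axoneme, had 5.90 and 4.87 CPM in progenitors I, against 33.96 and 34.1 CPM in progenitors II, a 5.90-fold lower level (-2.56 ± 0.41, edgeR adjusted p = 0.00207). Rsph4a, a radial spoke component, had 32.4 and 36.4 CPM in progenitors I, against 111 and 128 CPM in progenitors II (-1.71 ± 0.33). Dnah6, an axonemal dynein heavy chain, had 21.1 and 20.7 CPM in progenitors I, against 66.8 and 70.2 CPM in progenitors II (-1.63 ± 0.30). The 12 genes were chosen for large differences of equal sign in both libraries, so the absence of overlap between the populations adds no evidence.

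The summed level of 48 axoneme genes in progenitors I was low for these cultures. It came to 1115 and 1018 CPM in progenitors I, against 2638 and 2614 CPM in progenitors II and 14223 and 14368 CPM in multiciliated cells. Thinned progenitors I cells held a median of 5 and 4 axoneme UMIs, against 12 and 12 in progenitors II and 71 and 70 in multiciliated cells. Microglia, which build no motile cilia, gave 2649 and 374 CPM, and neuroblasts 183 and 164 CPM. The level in progenitors I was therefore below that in microglia of library 1, and how much of it was free RNA was not tested.

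The list of multiciliation regulators also held Ift46, a gene of intraflagellar transport. Of the 16 genes listed 6 were lower in progenitors I than in progenitors II, none was higher and 10 did not pass. The list median was -0.59. Gmnc had 21.3 and 16.5 CPM in progenitors I, against 47.5 and 40.6 CPM in progenitors II (-1.14 ± 0.13, edgeR adjusted p = 1.1e-05), and was found in 9.04% and 6.19% of thinned progenitors I cells, against 19.1% and 16.8% of progenitors II cells and 0.697% and 0% (0 of 39 cells) of microglia. Myb, a transcription factor of early multiciliation, had 20.1 and 14.9 CPM in progenitors I, against 44.3 and 44.2 CPM in progenitors II (-1.24 ± 0.26). Trp73, Rfx2, Ift46 and Cdc20b were lower too, Trp73 and Cdc20b at under 3 CPM in both populations, and DESeq2 did not call Rfx2 (DESeq2 adjusted p = 0.218). Without the library block none of the 6 lower genes of this list passed. Foxj1, the main activator of motile cilia genes, had 154 and 194 CPM in progenitors I, against 270 and 342 CPM in progenitors II, and did not pass (-0.73 ± 0.42, edgeR adjusted p = 0.38). Foxj1 was found in 51.4% and 57.9% of thinned progenitors I cells, against 71.0% and 75.7% of progenitors II cells and 25.4% and 5.13% of microglia. Deup1, the deuterosome scaffold, had 10.8 and 8.73 CPM in progenitors I, against 33.3 and 27.1 CPM in progenitors II (-1.55 ± 0.22), and it was 1 of 3 lower genes among 25 of centriole amplification.

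Both populations were out of the cell cycle by class, and a few cell cycle genes differed. Cdkn1a, the cell cycle inhibitor p21, had 129 and 107 CPM in progenitors I, against 259 and 210.4 CPM in progenitors II (-0.91 ± 0.22, edgeR adjusted p = 0.0193). Ccnd2, a D-type cyclin, had 252 and 267 CPM in progenitors I, against 155 and 184 CPM in progenitors II (0.70 ± 0.18, edgeR adjusted p = 0.0272). Ccnd1 had 74.1 and 61.0 CPM in progenitors I, against 31.1 and 30.5 CPM in progenitors II, and did not pass (1.22 ± 0.37, edgeR adjusted p = 0.0711). In each library both cyclins were at a higher level and Cdkn1a at a lower one in progenitors I. Of 41 S phase genes 5 were lower (Blm, Cdt1, Chaf1a, Lig1 and Pola1), and 2 genes of the 49 for G2 and M phase were lower (Kif11 and Psrc1), against 4.45% of all genes. DESeq2 called Blm and Kif11 but not the other 5 (DESeq2 adjusted p between 0.0879 and 0.333).

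**Figure D5:**
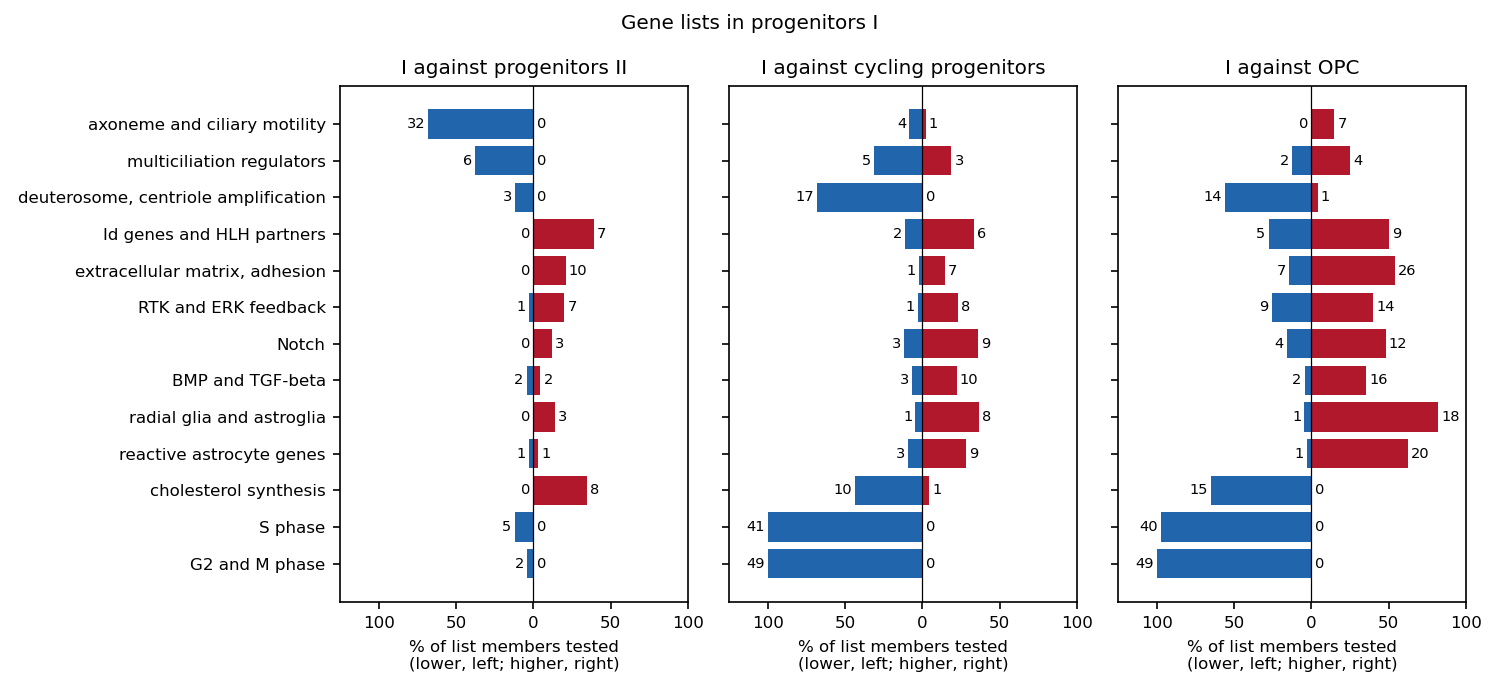
Share of the tested members of 13 gene lists that passed edgeR's test as lower (blue, to the left) or higher (red, to the right) in progenitors I against progenitors II, cycling progenitors and OPCs, with the number of genes beside each bar. Against progenitors II the longest bar is axoneme and ciliary motility, with 32 of 47 genes lower. Against cycling progenitors and OPCs the longest bars are the S and G2 and M phase lists.

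Against cycling progenitors, 2720 genes (17.1%) were higher and 2410 (15.2%) lower in progenitors I. Every S phase gene tested (41 of 41) was lower, as was every gene of G2 and M phase (49 of 49). The 8 lowest by rule (Hmmr, Bub1, Pimreg, Mki67, Ube2c, Neil3, Ccna2 and Mxd3) had no more than 2.41 CPM in progenitors I. Among the given markers Id3 passed in this comparison, at 988 and 815 CPM in progenitors I, against 418 and 259 CPM in cycling progenitors (1.54 ± 0.28, edgeR adjusted p = 0.000819). Id1 differed by 0.45 ± 0.21 (edgeR adjusted p = 0.113), Olig1 by 0.02 ± 0.28 (edgeR adjusted p = 0.966) and Olig2 by -0.37 ± 0.28 (edgeR adjusted p = 0.341). The sign for Olig1 changed with the populations in the fit. Without the library block 646 genes were higher and 1272 lower, and Id3, Gfap, Hopx, Nes, Junb, Nog, Neat1 and Pla2g7 did not pass (edgeR adjusted p between 0.0578 and 0.55).

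Of 22 radial glial and astroglial genes 8 were higher in progenitors I than in cycling progenitors, 1 was lower and 13 did not pass, against 17.1% of all genes higher and 15.2% lower. Of the 8, DESeq2 called 6 and 3 passed without the library block. Gfap had 1042 and 1099 CPM in progenitors I, against 272 and 251 CPM in cycling progenitors (2.13 ± 0.61, edgeR adjusted p = 0.0179). Aldoc, an aldolase of astrocytes, had 253 and 323 CPM in progenitors I, against 79.6 and 99.2 CPM in cycling progenitors (1.79 ± 0.29, edgeR adjusted p = 0.000359). Slc1a2, a glutamate transporter, and Hopx, a marker of quiescent neural stem cells, were higher by 1.18 and 1.49. In each library these genes were higher in progenitors I. Elobl, Glycam1, Tcp11l2, Cntf, Neat1, Omd and Pla2g7 completed the 8 genes named as highest beside Gfap. Cntf, which codes for ciliary neurotrophic factor, had 91.4 and 92.6 CPM in progenitors I, against 27.2 and 23.4 CPM in cycling progenitors. Nes, the intermediate filament nestin of neural progenitors, was lower, at 181 and 386 CPM in progenitors I and 284 and 575 CPM in cycling progenitors (-0.51 ± 0.16, edgeR adjusted p = 0.0197), a call that DESeq2 did not make (DESeq2 adjusted p = 0.105).

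Signalling lists gave mixed counts in this comparison. Of 25 Notch genes 9 were higher and 3 lower, with Hey1 at 75.6 and 80.9 CPM in progenitors I, against 38.9 and 39.8 CPM in cycling progenitors (1.10 ± 0.18). Of the 9 higher Notch genes, 5 passed without the library block. Of 45 BMP and TGF-beta genes 10 were higher and 3 lower, among them Smad9 and Nog, higher by 1.10 and 0.90. That share of higher genes lay near the 17.1% of all genes, and 2 of the 10 passed without the library block. Cholesterol synthesis went the other way from the comparison with progenitors II, with 1 gene higher and 10 lower of 23. Of the 10 lower genes, 2 passed without the library block. Fdps, a farnesyl diphosphate synthase, had 54.5 and 70.4 CPM in progenitors I, against 44.9 and 48.1 CPM in progenitors II and 110 and 119 CPM in cycling progenitors. Progenitors I thus held a level between these populations for Fdps. The stress and immediate early genes had 13 of 31 members higher, against 17.1% of all genes. Of the 13, DESeq2 called 8 and 1 passed without the library block. Junb among them had 120 and 259 CPM in progenitors I, against 48.5 and 98.8 CPM in cycling progenitors. Junb was also higher in library 2 than in library 1 in both populations.

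Against OPCs, 3551 genes (22.4%) were higher and 2639 (16.6%) lower in progenitors I, together 39.0% of those tested. By CPM ratios with 2 counts added, 3261 of the 3551 were higher and 2638 of the 2639 lower in both libraries. DESeq2 moved the median of all genes by -0.22, and 48.9% of its calls were higher, against 57.4% of edgeR's. The 102 OPC cells gave 883710 and 491296 UMIs, so a count of 0 allows up to 3.39 and 6.11 CPM there. Of 14 OPC genes all 14 were lower in progenitors I, with a log2 difference of -2.47 ± 0.30 for Olig1 (edgeR adjusted p = 2.23e-05) and -4.37 ± 0.27 for Olig2 (edgeR adjusted p = 5e-09). Id3 had 988 and 815 CPM in progenitors I, against 126 and 20.4 CPM in OPCs (3.75 ± 0.39, edgeR adjusted p = 5.14e-06). Olig1 and Olig2 were thus lower and Id3 higher in progenitors I than in OPCs. With progenitors I and OPCs alone in the fit Id3 (4.04, edgeR adjusted p = 0.202) did not pass. The other genes named as lowest were Calcrl, Prkg2, Neto1, Hist1h3c, Pcdh15, Hmmr and Bub1, each with 7 UMIs or fewer in the progenitors I sum of either library.

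Of 22 radial glial and astroglial genes 18 were higher and 1 (S100b) lower in progenitors I than in OPCs. Gfap had 1042 and 1099 CPM in progenitors I, against 194 and 26.5 CPM in OPCs (3.38 ± 0.72, edgeR adjusted p = 0.00221). The OPC sums of the libraries differed in such genes, with 12255 and 5758 CPM over the 23 listed. Hes1, a Notch target, had 26.4 and 116 CPM in progenitors I, against 4.53 and 4.07 CPM in OPCs (4.03 ± 0.68, edgeR adjusted p = 0.000135). Gfap did not pass with these populations alone in the fit (edgeR adjusted p = 0.328), nor did Hes1 without the library block (edgeR adjusted p = 0.179). The Notch ligand genes Dll1, Dll3 and Jag1 were lower in progenitors I, with Dll3 at 1.39 and 0.728 CPM in progenitors I and 36.2 and 55.0 CPM in OPCs. Of the genes named as highest, Anxa3, an annexin, had 229 and 194 CPM in progenitors I, against 13.6 CPM in OPCs of library 1 and 0 UMIs in OPCs of library 2. Npvf, Fn1, Cxcl10, Elobl, Lmod1, Car3 and Six3os1 were the others, with at most 7 UMIs in either OPC sum. After thinning, Cxcl10 (edgeR adjusted p = 0.215) and Dll1 (edgeR adjusted p = 0.0617) did not pass. Cell division genes were lower in progenitors I here too, with 49 of 49 for G2 and M phase and 40 of 41 for S phase, while OPCs had 67.6% and 100% of their cells in S, S/G2 or G2/M.

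Between the libraries, progenitors I differed in a limited set of genes. Of 10920 genes with at least 100 UMIs in progenitors I, 225 differed more than 2-fold between the libraries, and the median absolute log2 ratio was 0.21. Immediate early genes were higher in library 2, with Fos at 256 and 1259 CPM, Fosb at 16.5 and 96.0 CPM and Nr4a1 at 5.79 and 40.7 CPM in libraries 1 and 2. Socs3, a feedback inhibitor of cytokine signalling, had 19.96 and 183 CPM in libraries 1 and 2. Fos in progenitors II was at 268 and 1292 CPM, so the same difference was seen there. Interferon-stimulated genes were higher in library 1, with Isg15 at 12.8 and 3.41 CPM, and the chemokine gene Ccl5 had 349 and 9 UMIs. Xist, the RNA of the inactive X chromosome, had 1 UMI in library 1 and 5859 in library 2. The labels used here do not give the sex of the pups, which therefore cannot be told apart from library, substrain and culture. With 1 library per substrain these differences have no replicate check.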

How the data were processed

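The submitters deposited UMI counts per gene and cell for 2 libraries and a metadata table with the population, cell cycle class and library of each cell. Per the submitters' processing notes Cell Ranger, in versions 3 and 5.0.1, made them with mm10 as the build, and the labels give 10x 3′ chemistry. The filters on cells, the treatment of doublets and the naming of populations are not given in the sources used. Populations and lists were chosen with earlier results of these data known.

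Counts were summed per library and population, leaving out fibroblasts (18 cells in library 1), and 15877 genes of 32287 passed the low count filter (filterByExpr). The sums were tested with edgeR 4.0.16 (R 4.3.3, TMM, robust quasi-likelihood, two-sided, Benjamini-Hochberg) over 26 sums with population and library as terms, 12 residual degrees of freedom. The other side of the contrast with all others weights the 12 populations equally. The library entered as a block, since sums of the same library share their culture and run: same-library deviations correlated with a median of 0.268 over 78 pairs, the lowest being 0.00132. Both libraries hold separate cultures only as far as their substrains differ. The block takes out the difference in level between the libraries. The p-values therefore measure how far differences between populations varied from library to library, over all populations fitted. Shares have exact Clopper-Pearson 95% intervals (scipy 1.17.1), which cover counting error only. A count of 0 was bounded at 3 counts of a sum. DESeq2 1.42.0 and other alternatives are given in the closing section.

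Named genes were, for each contrast, the 12 (all others, progenitors II) or 8 (cycling progenitors, OPCs) with the greatest log2 differences on either side, called, of equal sign in both libraries and at 32 CPM or more on the higher side, without predicted, mitochondrial and ribosomal protein genes. Added to them were the 15 with the highest ratio over the next population, the given markers and up to 3 members each way per list; genes named outside these (such as the remaining called members of a list, Acta2, Tagln, Fabp7, Foxj1 and Ccnd1) were chosen after their values were seen. Some list members are not reported here by name. Gene coordinates are from GENCODE M21, in which 32158 IDs (99.6%) were found. The steps were tested on simulated data.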

Additional observations from a re-analysis of the deposited data

How the results depend on the processing

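The number of libraries limits every comparison: without replicate 1 or 2 no residual spread is left, so the tests could not be fitted and values stand alone. Without the replicate block, which is the paired term of the main fit, edgeR called 1567 genes lower against all others, 8 higher and 81 lower against progenitors II, and 646 higher and 1272 lower against cycling progenitors; its other counts stayed within 1.5 times. With 34 cells drawn per population the counts higher and lower were 1276 and 442 against all others, 3 and 0 against progenitors II, 186 and 593 against cycling progenitors, and 1677 and 1691 against OPCs. In that setting Hes5 (-0.45), Etv1 (-0.68), Etv5 (-0.31) and Cdc20b (0.0087) changed sign against progenitors II, and Olig1 against cycling progenitors was -0.11. Olig1 there was also -0.0355 without unannotated cells and -0.0356 with the populations of the contrast alone. With these alone in the fit, 2460 genes were higher and 2345 lower against progenitors II, and 2122 higher and 1968 lower against OPCs. With neural progenitors and multiciliated cells alone on the other side 4770 genes were lower, and with DESeq2 3972. Thinning every cell gave 1787 genes higher against cycling progenitors and 2292 against OPCs. The causes were not tested beyond fewer cells or samples where the setting itself gives them.

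Mean shares of progenitors I cells with a UMI, unthinned and at 3000 UMIs, were 85.4% and 68.0% for Id3, 82.2% and 55.7% for Id1, 56.5% and 27.1% for Olig1, and 14.02% and 4.35% for Olig2. Adding fibroblasts to the fit, chosen after seeing the data, kept 400 of the 433 genes higher and 677 of the 706 lower in progenitors I than in progenitors II.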
